A study of Homo sapiens with 6 samples.

Results

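The genes described here are the well-expressed long intergenic non-coding RNAs (lincRNAs) in 6 RNA-seq libraries of A549, a human lung adenocarcinoma cell line. A gene was included when GENCODE release 29 gives it the biotype lincRNA and its level averaged 4 CPM or more over all 6 libraries, where CPM is the count divided by the library total and scaled by 1e6. Symbols starting with SNHG, HOX or HOT were left out, as were GAS5 and ZFAS1. This left 106 genes of the 7635 lincRNA genes among the 58721 genes of the table; 4 SNHG genes passed the level and were removed by symbol. The genes were thus chosen by their measured mean level over both groups together, and not by the difference between them. Just inside the minimum were LINC01273 (4.08 CPM), AC008124.1 (4.10 CPM) and RAB30-AS1 (4.14 CPM), with log2 fold changes of 0.41, -0.22 and 0.06. Just outside were AC084033.3 (3.89 CPM), AC073869.3 (3.86 CPM) and AC092279.1 (3.84 CPM), with -1.24, 0.14 and -0.50.

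The WT group held 3 libraries labelled as cells overexpressing wild-type KAT8, and the R98W group held 3 libraries labelled as cells overexpressing the R98W form. KAT8, also called MOF, is a lysine acetyltransferase of histone H4 that works in the MSL and the NSL complex, and R98W is an amino acid substitution in its Tudor-knot domain. All 6 libraries were made from polyadenylated RNA, per the labels, and no library labelled as without overexpression was analysed here. The single comparison, R98W against WT, asks which transcript levels differ between the 2 overexpressed forms. Whether the replicates came from separate cultures is not stated in the labels, so the p-values speak of the spread among these 6 libraries alone, and that spread may be technical.

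KAT8 itself measured 12.2, 195 and 184 CPM in WT replicates 1 to 3 and 166, 196 and 236 CPM in the R98W replicates. WT replicate 1, as it is labelled, held 1214 KAT8 counts, far fewer than the others and against its label, and the main counts below were also made without it. Library totals ran from 90007121 to 110152936 counts. The share of counts in the mitochondrial ribosomal RNAs was 0.905% to 1.04% in WT and 1.47% to 1.57% in R98W, so it moved with the group, and its part in the results was not tested. The line's epithelial markers were present, with KRT8 at 3997 to 4680 CPM, KRT18 at 2580 to 3369 CPM and CDH1 at 134 to 170 CPM, while KRT19 measured 39.6 to 55.0 CPM and EPCAM only 3.20 to 8.74 CPM. EPCAM, KRT8, KRT18 and CDH1 were lower in every R98W library than in any WT library, and KRT19 was higher, by CPM of unscaled totals. The TMM factors used to scale the totals for the test were 1.02 to 1.06 in WT and 0.951 to 0.971 in R98W. On that scale the groups of KRT8 and CDH1 overlapped, so for these the separation depends on the scaling. The part of the markers in the results was not tested. Markers of blood cells, endothelium and muscle (PTPRC, CD3E, HBB, PECAM1, DES) stayed at or below 0.281 CPM in every library, and COL1A1, a collagen gene of fibroblasts, measured 10.5 to 14.6 CPM.

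LincRNAs are transcribed by RNA polymerase II from their own genes outside coding genes, and most are spliced and polyadenylated like messenger RNAs but are not known to be translated. Some act as scaffolds of nuclear bodies (NEAT1 in paraspeckles), while MALAT1 lies in nuclear speckles. Others bind proteins in the cytoplasm (NORAD binds PUMILIO proteins), and some are precursors of microRNAs. Many start beside a coding gene and run away from it, so that both transcripts leave one promoter region in opposite directions, and such lincRNAs often carry the neighbour's symbol with the ending DT (divergent transcript) or AS1.

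The start regions of the genes that lead the results are shown first. For 49 of the 106 lincRNAs a RefSeq promoter sequence (build GRCh38.p14, 250 bases before to 50 bases after the start) was found by symbol, and for 43 of these the RefSeq start lay within 2000 bases of the GENCODE start. The regions of BAIAP2-DT and LINC01833, the lincRNAs with the largest falls in R98W, and of PURPL, a p53-linked lincRNA that was higher in R98W, are written on the strand of the lincRNA. Capitals mark matches to GGGCGG (the GC box bound by Sp factors) and CCAAT (the NF-Y box) on either strand, and in PURPL the p53 motif.
BAIAP2-DT, chr17:81034670-81034969, minus strand: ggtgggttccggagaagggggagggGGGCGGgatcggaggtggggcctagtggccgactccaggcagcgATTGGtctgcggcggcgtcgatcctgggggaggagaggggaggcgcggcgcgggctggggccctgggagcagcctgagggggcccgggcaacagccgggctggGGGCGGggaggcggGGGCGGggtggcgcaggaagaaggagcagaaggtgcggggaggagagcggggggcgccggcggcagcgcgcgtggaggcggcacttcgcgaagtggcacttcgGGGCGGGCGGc
LINC01833, chr2:44939150-44939449, minus strand: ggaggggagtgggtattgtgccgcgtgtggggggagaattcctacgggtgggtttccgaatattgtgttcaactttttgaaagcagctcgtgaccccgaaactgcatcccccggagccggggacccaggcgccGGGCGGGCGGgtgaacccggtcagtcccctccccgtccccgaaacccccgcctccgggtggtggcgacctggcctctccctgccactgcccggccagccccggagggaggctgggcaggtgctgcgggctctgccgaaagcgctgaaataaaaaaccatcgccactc
PURPL, chr5:27472042-27472341, plus strand: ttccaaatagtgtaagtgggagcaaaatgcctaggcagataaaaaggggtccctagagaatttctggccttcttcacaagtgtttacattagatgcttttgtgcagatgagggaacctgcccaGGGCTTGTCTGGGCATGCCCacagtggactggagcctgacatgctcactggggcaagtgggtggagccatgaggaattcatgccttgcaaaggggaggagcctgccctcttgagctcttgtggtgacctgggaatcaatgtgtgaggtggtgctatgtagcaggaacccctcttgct

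The BAIAP2-DT region was 77.3% G and C, with 33 CpG sites, 5 matches to GGGCGG and 1 to CCAAT. LINC01833 had 24 CpG sites and 2 matches to GGGCGG. The PURPL region differed from both, with 52.0% G and C, 0 CpG sites and 2 adjacent p53 decamers that form 1 full p53 element. A p53 decamer was present in 6.63% of all 35116 promoters of the table and in 3 of the 43 lincRNA promoters scanned, and the full element in 6 of the 35116 and in PURPL alone among the 43. Matches are descriptions of the letters and do not show that a factor binds.

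Beside these stand 3 gaps between a lincRNA and the coding gene it faces, chosen because only 1 of the 2 transcripts passed the test or the 2 passed in opposite directions, although their starts lie within 134 bases of each other; the difference within a pair was not tested. Each is written on the strand of the lincRNA, which starts just after the last base shown, while the coding gene starts just before the first base, on the other strand.
SCAMP1-AS1 to SCAMP1, chr5:78360542-78360582, minus strand: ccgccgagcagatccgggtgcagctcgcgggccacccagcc
NUP50-DT to NUP50, chr22:45163782-45163840, minus strand: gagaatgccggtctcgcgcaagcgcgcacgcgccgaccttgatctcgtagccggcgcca
EIF3J-DT to EIF3J, chr15:44536924-44537056, minus strand: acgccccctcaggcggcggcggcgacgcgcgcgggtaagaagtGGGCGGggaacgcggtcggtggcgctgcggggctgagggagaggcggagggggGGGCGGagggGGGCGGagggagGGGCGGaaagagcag
The EIF3J-DT gap of 133 bases held 4 matches to GGGCGG, in capitals. The gaps of 41 and 59 bases at SCAMP1-AS1 and NUP50-DT held none of the motifs searched.

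Over the 43 promoters scanned, 51.2% held GGGCGG and 46.5% held CCAAT, against 45.0% and 34.6% of all 35116 promoters. The other motifs searched, on both strands and with overlapping matches allowed, were CACGTG (an E-box; 6.98% against 7.26%), TGACGTCA (the cyclic AMP element; 2.33% against 1.85%), CCGGAAG (an ETS site; 16.3% against 10.3%), the NRF1 consensus (4.65% against 1.24%), TGANTCA (an AP-1 site; 9.30% against 7.71%) and TATAAA (the TATA box; 2.33% against 11.5%). Only the p53 decamer overlaps another motif searched, the p53 element. The median G and C content was 66.3% in the lincRNA promoters scanned and 58.7% in all promoters. It was 59.7% in the 10 scanned promoters of lincRNAs that were higher in R98W and 66.8% in the 14 of lincRNAs that were lower, without a test.

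Of the 106 lincRNAs, 27 rose in R98W and 32 fell (edgeR quasi-likelihood test, Benjamini-Hochberg adjusted p of 0.05 over 20713 genes). Together these are 55.7% of the 106, beside 34.8% of all genes tested and 47.3% of coding genes averaging 4 CPM or more. By direction they are 25.5% and 30.2%, where 16.2% of all genes tested were higher and 18.5% lower. Among protein-coding genes averaging 4 CPM or more, 25.4% were higher and 21.9% lower, so the share of rises among the lincRNAs was close to that of coding genes of the same minimum level. Among the 1072 other lincRNA genes tested, mostly below that level, 2.71% were higher and 13.2% lower, and their median standard error (SE) of the log2 fold change was 0.40 against 0.11 for the 106. When WT replicate 1, the library low in KAT8, was removed, 25 were higher and 29 lower, of which 24 and 29 had been called with it. The split depends on the scaling: after the trend of the difference with expression level was removed in each library, 32 were higher and 24 lower.

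The differences were small. The median log2 fold change of the 106 was -0.04 (quartiles -0.36 and 0.24), beside -0.0047 over all genes tested, 0.03 over coding genes with at least 4 CPM and -0.19 over the other lincRNAs. Of the 106, 4 were called at least 2-fold lower (3.77%, against 4.85% of all genes, 1.61% of coding genes with at least 4 CPM and 8.49% of the other lincRNAs) and 0 at least 2-fold higher (against 0.748% of all genes). The extremes were BAIAP2-DT at 0.391 times its WT level and AF127577.4 at 1.78 times. In 67 of the 106 (63.2%, against 45.6% of all genes and 57.4% of coding genes with at least 4 CPM) the 3 R98W libraries lay wholly above or wholly below the 3 WT libraries, 29 above and 38 below, and 10 of these 67 did not pass the test. LincRNAs of 4 to 8 CPM had 9 rises and 19 falls among 51, those of 8 to 16 CPM had 6 and 8 among 28, and those of at least 16 CPM had 12 and 5 among 27. These steps were not counted over all genes, so whether the shift with level is particular to lincRNAs was not tested. With the expression-level trend removed, the median log2 fold change was 0.04 for the 106 and -0.04 for the other lincRNAs.

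**Figure D1:**
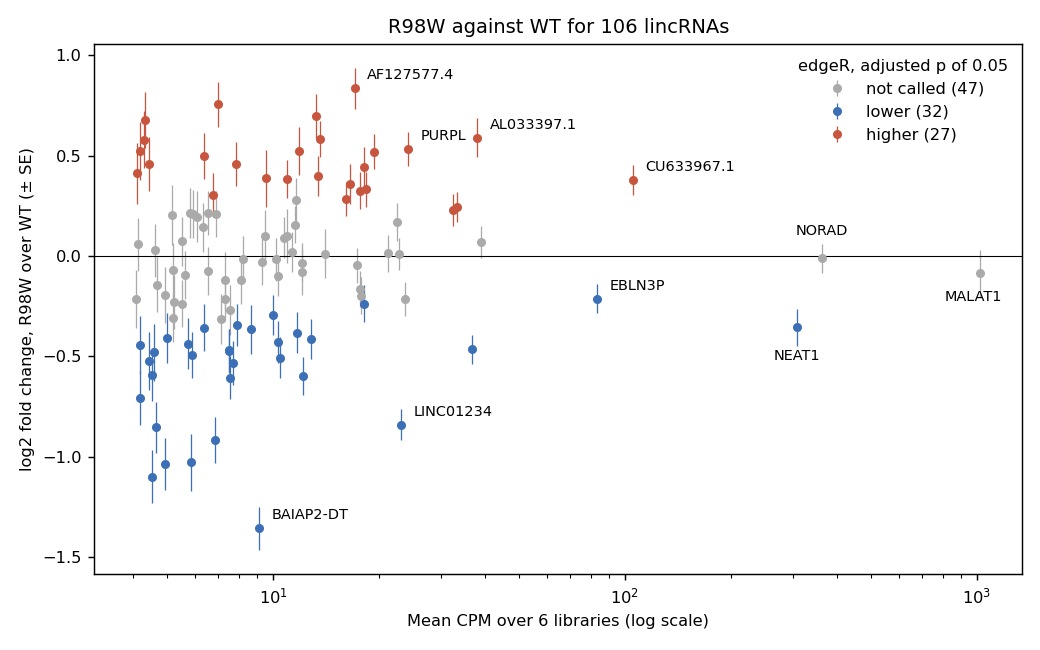
Log2 fold change of R98W over WT (vertical axis, bars are ± 1 SE) against mean CPM over 6 libraries (log scale) for the 106 lincRNAs, 1 point per gene. Most points lie between -0.5 and 0.5, the 27 called rises (red) and 32 called falls (blue) lie on both sides of 0 at most levels, and the largest falls are of genes below 25 CPM.

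The largest falls were BAIAP2-DT, LINC01833, AC016705.2 and LINC02001, the 4 that were more than 2-fold lower. Per-library values below follow the order of replicates 1 to 3 and are CPM from TMM-scaled totals. BAIAP2-DT (ENSG00000226137, chr17:81029130-81034881, hg38), the divergent transcript of the adaptor gene BAIAP2, measured 11.7, 13.8 and 14.0 CPM in WT and 5.33, 5.0 and 5.10 CPM in R98W. Its log2 fold change was -1.36 (edgeR adjusted p = 2.43e-08, SE 0.11), the smallest p of the 106 lincRNAs. All 3 R98W libraries were far below the WT libraries and close to each other. LINC01833 (ENSG00000259439, chr2:44921077-44939199) measured 5.44, 6.34 and 6.74 CPM in WT and 2.99, 2.81 and 2.84 CPM in R98W (log2 fold change -1.10, SE 0.13, edgeR adjusted p = 3.43e-06). AC016705.2 (ENSG00000259495, chr15:80344853-80403575), which faces the transcription factor gene ARNT2, measured 6.16, 6.97 and 6.72 CPM in WT and 2.93, 3.56 and 3.18 CPM in R98W, and fell by 1.04 on the log2 scale (SE 0.13, edgeR adjusted p = 4.88e-06). In both genes the groups stood apart by more than the spread within either.

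LINC02001 (ENSG00000267321, chr17:35568109-35574843) measured 6.33, 7.89 and 9.32 CPM in WT and 3.70, 3.55 and 4.29 CPM in R98W, with a log2 fold change of -1.03 (edgeR adjusted p = 1.58e-05, SE 0.14). It is among the lincRNAs whose bodies overlap a tested gene on the other strand, and the strand setting of the counting is not given in the sources used here, so its reads cannot be told apart from those of the other strand. LNCAROD (ENSG00000231131, chr10:52450874-52755409), named as an activating regulator of the Wnt inhibitor gene DKK1, measured 8.53, 9.44 and 8.94 CPM in WT and 5.27, 4.49 and 4.49 CPM in R98W and fell by 0.92 on the log2 scale (SE 0.11, edgeR adjusted p = 5.69e-06). LINC01234 (ENSG00000249550, chr12:113679459-113773683) had the tightest replicates of these, at 29.2, 30.5 and 29.1 CPM in WT and 16, 16.8 and 16.8 CPM in R98W (log2 fold change -0.84, SE 0.08, edgeR adjusted p = 1.48e-07). DUBR (ENSG00000243701, chr3:107240692-107326964), named for binding upstream of the pluripotency gene DPPA2, measured 4.99, 5.35 and 5.22 CPM in WT and 3.62, 2.82 and 3.09 CPM in R98W (log2 fold change -0.71, SE 0.14, edgeR adjusted p = 0.000427). In all 4 the groups did not overlap.

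The largest rises were smaller in size. AF127577.4 (ENSG00000235609, chr21:14818843-15014430) measured 12.2, 10.5 and 14.1 CPM in WT and 22.7, 22.7 and 20.2 CPM in R98W, with a log2 fold change of 0.83 (edgeR adjusted p = 4.15e-06, SE 0.10). It overlaps NRIP1, a nuclear receptor corepressor gene, on the same strand. How the counting treated reads in shared stretches is not given, so some of its reads may be those of NRIP1, which was not tested. LINC02535 (ENSG00000234155, chr6:85387219-85390186) measured 5.21, 5.49 and 4.83 CPM in WT and 9.41, 8.0 and 8.82 CPM in R98W (log2 fold change 0.75, SE 0.11, edgeR adjusted p = 4.25e-05). Every R98W library of both genes was above every WT library.

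NUP50-DT (ENSG00000226328, chr22:45133020-45163781), the divergent transcript of the nucleoporin gene NUP50, measured 3.20, 3.89 and 2.88 CPM in WT and 5.76, 5.03 and 5.17 CPM in R98W (log2 fold change 0.68, SE 0.14, edgeR adjusted p = 0.000871). AL033397.1 (ENSG00000231683, chr6:53561289-53617171), which shares its strand with GCLC, the catalytic subunit gene of glutathione synthesis, measured 34.9, 25.9 and 30.4 CPM in WT and 49.2, 48.2 and 39.8 CPM in R98W (log2 fold change 0.59, SE 0.10, edgeR adjusted p = 0.000119). AC126365.1 (ENSG00000264215, chr17:20788071-20789584), an unspliced gene of 1514 bases, measured 4.13, 3.05 and 3.15 CPM in WT and 5.08, 4.81 and 5.53 CPM in R98W (log2 fold change 0.58, SE 0.14, edgeR adjusted p = 0.00348). The groups were apart in all 3 genes, by less than 5 CPM in AL033397.1 and by less than 1 CPM in AC126365.1.

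**Figure D2:**
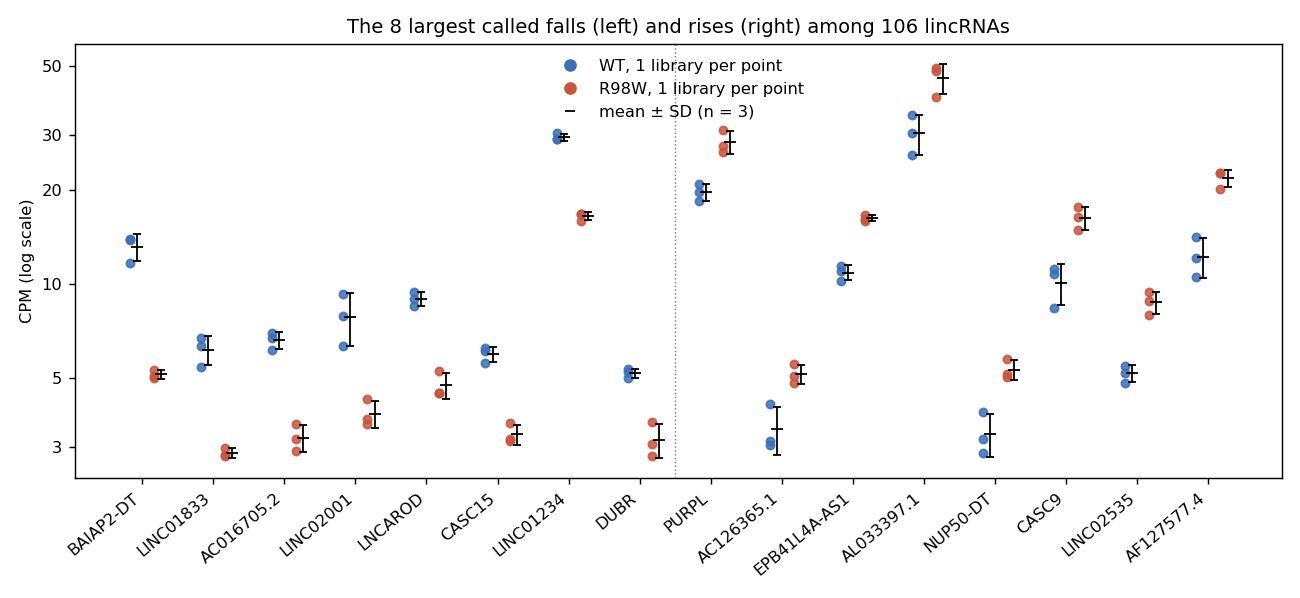
CPM per library (log scale) for the 8 lincRNAs with the largest falls and the 8 with the largest rises among those past the test, 3 WT and 3 R98W libraries each, with mean ± SD (n = 3) beside the points. BAIAP2-DT falls from 13.2 to 5.14 CPM on average, and AF127577.4 rises from 12.3 to 21.9 CPM.

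Compared per kilobase of exon, MALAT1 was the most abundant of the 106 (116 CPM per kb), followed by NORAD (68.1), IGFL2-AS1 (20.9), AC090204.1 (13.7), NEAT1 (13.5), EBLN3P (12.8), CU633967.1 (12) and LINC00294 (11.8). The last 5 of these lie within a narrow range of levels per kb. MALAT1, NORAD and NEAT1 together took 56.6% of the counts of all 106. The 106 together took 0.336%, 0.295% and 0.322% of all counts in WT and 0.272%, 0.277% and 0.296% in R98W, so the lowest WT library and the highest R98W library were level. The per-gene means ran from 4.08 to 1024 CPM with a median of 8.48, and the lowest count of any of the 106 in any library was 272.

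Among the abundant lincRNAs, the scaffold of paraspeckles fell while the RNA of nuclear speckles did not pass the test. NEAT1 (ENSG00000245532, chr11:65422774-65445540) measured 319, 379 and 337 CPM in WT and 296, 223 and 291 CPM in R98W (log2 fold change -0.36, SE 0.09, edgeR adjusted p = 0.0048). The groups did not overlap, but R98W replicate 2 was well below the other R98W libraries. MALAT1 (ENSG00000251562, chr11:65497688-65506516) measured 1263, 830.3 and 1066 CPM in WT and 818, 1025 and 1131 CPM in R98W, with a log2 fold change of -0.09 (edgeR adjusted p = 0.612, SE 0.12). Its libraries varied within each group by more than the groups differed, with coefficients of variation of 20.6% in WT and 16.1% in R98W against medians of 8.92% and 7.53% over the 106, and its sign turned without the library labelled WT replicate 1 (0.05) and without R98W replicate 1 (0.04). With the expression-level trend removed MALAT1 was at -0.29 (edgeR adjusted p = 0.0583). As background, MALAT1 and the long NEAT1 isoform end without a usual poly(A) tail, and gene-level counts do not separate the NEAT1 isoforms. The share of mitochondrial ribosomal RNA, given above, differed between the same libraries, and its part in these levels was not tested.

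NORAD (ENSG00000260032, chr20:36045622-36050960) measured 394, 339 and 363 CPM in WT and 394, 356 and 337 CPM in R98W. Its log2 fold change was -0.01 (edgeR adjusted p = 0.923, SE 0.07), and the groups lay over each other. With the expression-level trend removed NORAD was at -0.19 (edgeR adjusted p = 0.0377), while it was positive, at 0.03, after the exon-length trend was removed and without the library labelled WT replicate 1, at 0.00094 without R98W replicate 2 and at 0.04 without R98W replicate 3. NORAD also shares near-identical stretches with 2 other annotated genes, the longest of 1036 bases, and its counts are uncertain to that extent.

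IGFL2-AS1 (ENSG00000268621, chr19:46189166-46203083) fell, from 45.2, 42.3 and 40.1 CPM in WT to 29.8, 30.8 and 31.8 CPM in R98W (log2 fold change -0.47, SE 0.07, edgeR adjusted p = 6.51e-05). AC090204.1 (ENSG00000247134, chr8:32996178-33044855) also fell, from 11.1, 13.7 and 12.1 CPM to 8.68, 8.91 and 8.40 CPM (log2 fold change -0.51, SE 0.10, edgeR adjusted p = 0.000738). CU633967.1 (ENSG00000274333, chr21:5553637-5614880) rose, from 99.2, 81.9 and 94.1 CPM to 125, 118 and 114 CPM (log2 fold change 0.38, SE 0.07, edgeR adjusted p = 0.000564). Groups did not overlap in any of these, but CU633967.1 has near-identical stretches in 4 other genes, the longest of 7632 bases, so its reads may belong to copies. EBLN3P (ENSG00000281649, chr9:37079857-37090507), a pseudogene of a bornavirus-like nucleoprotein, measured 87.7, 82.7 and 97.7 CPM in WT and 80.5, 77.2 and 73.5 CPM in R98W (log2 fold change -0.21, SE 0.07, edgeR adjusted p = 0.0267). That call was lost without WT replicate 3 (edgeR adjusted p = 0.162), without R98W replicate 2 (0.0812) and without R98W replicate 3 (0.11). LINC00294 (ENSG00000280798, chr11:33076149-33079454) measured 38.6, 40.9 and 34.6 CPM in WT and 42.8, 38.6 and 38.4 CPM in R98W, with overlapping groups and a log2 fold change of 0.07 (edgeR adjusted p = 0.536, SE 0.08); the sign turned without WT replicate 3 (-0.0025).

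**Figure D3:**
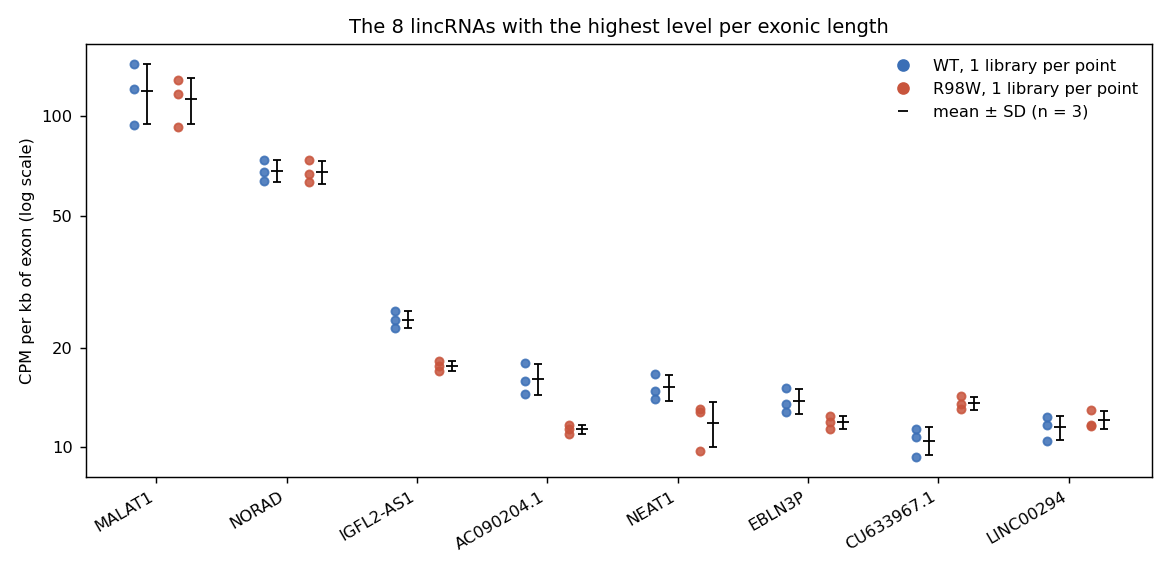
CPM per kb of exon (log scale) in each library for the 8 lincRNAs with the highest level per exonic length, 3 WT and 3 R98W libraries with mean ± SD (n = 3). MALAT1 and NORAD points of the groups lie over each other, IGFL2-AS1, AC090204.1 and NEAT1 lie lower in R98W, and CU633967.1 lies higher.

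The lincRNAs with known roles were read in 4 lists: architectural and nuclear RNAs, cytoplasmic and regulatory RNAs, p53-linked RNAs and microRNA hosts. The lists also hold RNAs of other biotypes or lower levels, and a gene may stand in more than one. Of 9 architectural and nuclear RNAs tested, 2 were higher and 1 lower, beside 16.2% and 18.5% of all genes (without the library labelled WT replicate 1, 1 and 1), with a median log2 fold change of 0.10. NEAT1 was the one that fell. PVT1 (ENSG00000249859, chr8:127794533-128101253), the lincRNA downstream of the MYC oncogene, measured 14.9, 16.7 and 15.3 CPM in WT and 18.6, 18.1 and 22.2 CPM in R98W (log2 fold change 0.33, SE 0.09, edgeR adjusted p = 0.00985). The groups did not overlap, and the call was lost without WT replicate 3 (edgeR adjusted p = 0.057) and without R98W replicate 3 (0.0756). MYC itself measured 86.1 ± 3.2 CPM in WT and 84.9 ± 4.5 CPM in R98W (SD, n = 3; log2 fold change -0.02, edgeR adjusted p = 0.844). MEG3 (ENSG00000214548, chr14:100779410-100861031), an imprinted lincRNA, measured 11.2, 10.4 and 10.2 CPM in WT and 11.2, 8.52 and 14.3 CPM in R98W, with a log2 fold change of 0.10 (edgeR adjusted p = 0.609, SE 0.13). Its R98W libraries were spread on both sides of the WT libraries, with the highest coefficient of variation in that group (25.4%), and the sign turned without R98W replicate 3 (-0.10).

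Of 20 cytoplasmic and regulatory RNAs tested, 6 were higher and 5 lower, beside 16.2% and 18.5% of all genes (without the library labelled WT replicate 1, 7 and 5), and 8 of them belong to the 106. EPB41L4A-AS1 (ENSG00000224032, chr5:112160526-112164276), which hosts the small nucleolar RNA SNORA13, measured 11.0, 11.4 and 10.2 CPM in WT and 16.7, 16.2 and 16 CPM in R98W (log2 fold change 0.58, SE 0.09, edgeR adjusted p = 4.72e-05). CASC9 (ENSG00000249395, chr8:75223404-75324741), known from squamous carcinoma of the oesophagus, measured 11.2, 8.39 and 10.8 CPM in WT and 17.7, 14.9 and 16.4 CPM in R98W (log2 fold change 0.70, SE 0.11, edgeR adjusted p = 6.44e-05). CRNDE (ENSG00000245694, chr16:54845189-54929189), a lincRNA of colorectal tumours, measured 9.32, 10.0 and 9.23 CPM in WT and 12.4, 11.9 and 12.8 CPM in R98W (log2 fold change 0.38, SE 0.09, edgeR adjusted p = 0.00367). These 3 rose with no overlap between the groups, and CRNDE and EPB41L4A-AS1 had the tightest replicates.

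FTX (ENSG00000230590, chrX:73946555-74293574), a lincRNA of the X-inactivation centre that carries a microRNA cluster, measured 13.1, 10.1 and 11.5 CPM in WT and 16, 14.8 and 14.9 CPM in R98W and rose (log2 fold change 0.40, SE 0.10, edgeR adjusted p = 0.00416). CASC15 (ENSG00000272168, chr6:21664772-22368328), from a neuroblastoma risk locus, was the only one of these 8 that fell, from 6.24, 5.60 and 6.10 CPM to 3.58, 3.19 and 3.15 CPM (log2 fold change -0.85, SE 0.13, edgeR adjusted p = 3.61e-05). CYTOR (ENSG00000222041, chr2:87454781-87636740), named as a regulator of the cytoskeleton, measured 20.8, 23.9 and 19.1 CPM in WT and 21.2, 25.5 and 24.9 CPM in R98W, with overlapping groups (log2 fold change 0.17, SE 0.09, edgeR adjusted p = 0.186), and passed only without WT replicate 2 (0.25, edgeR adjusted p = 0.0489). LINC00857 (ENSG00000237523, chr10:80207710-80219657) measured 10.6, 11.5 and 10.6 CPM in WT and 11.7, 12 and 12.7 CPM in R98W. Its groups did not overlap, but the log2 fold change of 0.16 did not pass the test (SE 0.09, edgeR adjusted p = 0.213). NORAD, given above, is the remaining one of the 8.

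Of 9 p53-linked RNAs tested, 3 were higher and 1 lower, where 16.2% and 18.5% of all genes were (without the library labelled WT replicate 1, 2 and 1), with a median log2 fold change of 0.21, and 5 belong to the 106. PURPL (ENSG00000250337, chr5:27472292-27496401), a lincRNA that p53 induces and that lowers p53 levels, measured 20.9, 18.5 and 19.7 CPM in WT and 31.3, 26.6 and 27.8 CPM in R98W. Its log2 fold change was 0.53 (edgeR adjusted p = 6.76e-05, SE 0.08), and all R98W libraries were above all WT libraries. The promoter with the full p53 element printed above is that of this gene. MIR34AHG (ENSG00000228526, chr1:9148011-9198906), the host of the p53 target miR-34a, measured 5.27, 5.79 and 5.90 CPM in WT and 6.79, 5.42 and 7.21 CPM in R98W (log2 fold change 0.20, SE 0.13, edgeR adjusted p = 0.251). TP53TG1 (ENSG00000182165, chr7:87325225-87345515), another p53 target, measured 4.13, 5.85 and 4.41 CPM in WT and 6.21, 4.62 and 5.79 CPM in R98W (log2 fold change 0.21, SE 0.15, edgeR adjusted p = 0.312). In both, the groups overlapped. NEAT1, which fell, and PVT1, which rose with the limits given above, are the other two.

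Of 17 microRNA host RNAs tested, 2 were higher and 2 lower, where 16.2% and 18.5% of all genes were (without the library labelled WT replicate 1, 3 and 1), with a median log2 fold change of 0.06. The largest called difference in this list was that of MIR600HG, a sense-intronic RNA below the minimum level and so not of the 106, which fell from 3.15 ± 0.56 to 1.42 ± 0.20 CPM (SD, n = 3; log2 fold change -1.15, edgeR adjusted p = 6.7e-05). For the lincRNA hosts among the 106 that passed the test, and for MIR34AHG, selected mature microRNAs are printed 5′ to 3′ from RefSeq with the seed (bases 2 to 8) in capitals, since the seed sets which messenger RNAs a microRNA can pair with.
hsa-miR-22-3p (MIR22HG): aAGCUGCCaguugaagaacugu
hsa-miR-22-5p (MIR22HG): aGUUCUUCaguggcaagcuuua
hsa-miR-4435 (MIR4435-2HG and CYTOR): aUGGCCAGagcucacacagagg
hsa-miR-193b-3p (MIR193BHG): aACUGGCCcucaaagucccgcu
hsa-miR-365a-3p (MIR193BHG): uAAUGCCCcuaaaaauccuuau
hsa-miR-421 (FTX): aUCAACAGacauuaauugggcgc
hsa-miR-374b-5p (FTX): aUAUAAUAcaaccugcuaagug
hsa-miR-545-3p (FTX): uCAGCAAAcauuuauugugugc
hsa-miR-34a-5p (MIR34AHG): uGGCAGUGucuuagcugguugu
The seed UGGCCAG belongs to miR-4435, whose sequence lies both in MIR4435-2HG (chr2:111321061-111321082) and in CYTOR (chr2:87629764-87629785). No other seed of the printed microRNAs is shared. The miR-22 and miR-34a sequences lie in exons of their hosts (chr17:1713914-1713935 for miR-22-3p and chr1:9151735-9151756 for miR-34a-5p), and those of MIR193BHG and FTX in introns. The libraries measured the host transcripts and not the mature microRNAs.

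MIR22HG (ENSG00000186594, chr17:1711493-1717174) measured 10.8, 9.40 and 9.01 CPM in WT and 12.5, 12.4 and 17.1 CPM in R98W, and rose (log2 fold change 0.53, SE 0.12, edgeR adjusted p = 0.00196). R98W replicate 3 stood above the other R98W libraries. MIR4435-2HG (ENSG00000172965, chr2:111036776-111523376) measured 15.8, 17.7 and 15.5 CPM in WT and 19.2, 20.2 and 22.1 CPM in R98W (log2 fold change 0.33, SE 0.09, edgeR adjusted p = 0.00609), a call lost without WT replicate 3 (edgeR adjusted p = 0.0519). It shares a near-identical stretch of 2254 bases with CYTOR, so reads of this pair are uncertain. MIR193BHG (ENSG00000262454, chr16:14301389-14331067) measured 11.9, 10.3 and 10.8 CPM in WT and 8.84, 8.91 and 9.18 CPM in R98W (log2 fold change -0.29, SE 0.10, edgeR adjusted p = 0.027). The groups did not overlap, yet this call was lost with the expression-level trend removed (edgeR adjusted p = 0.138) and without WT replicate 1 (0.0793), WT replicate 3 (0.0572), R98W replicate 1 (0.0824) or R98W replicate 2 (0.0757).

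**Figure D4:**
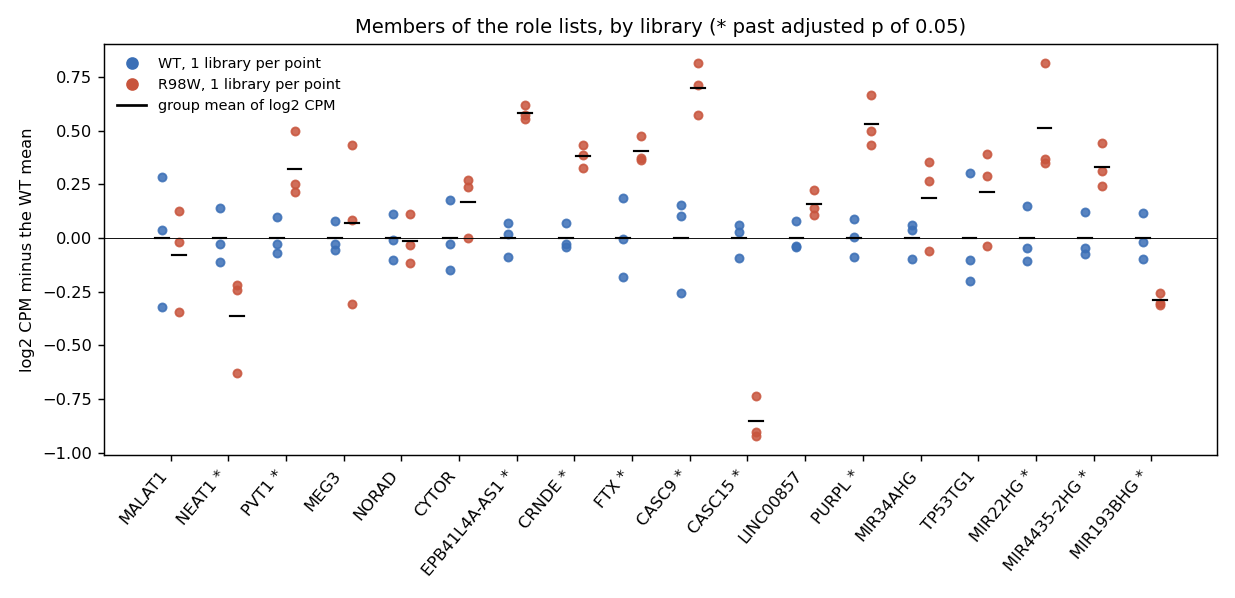
Log2 CPM minus the WT mean of log2 CPM (vertical axis) in each library for the lincRNAs of the 4 role lists, 3 WT and 3 R98W libraries, with short lines at the group means and * for an adjusted p under 0.05. CASC15, NEAT1 and MIR193BHG lie below 0 in R98W, while EPB41L4A-AS1, CRNDE, FTX, CASC9 and PURPL lie above 0 in every R98W library.

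Beyond the role lists, the lincRNAs that rose and fell shared few features. The median exonic length of the 106 was 3340 bases, against 5390 for coding genes with at least 4 CPM and 1508.5 for the other lincRNAs tested, and the median number of exon blocks was 4. Of the 106, 26 were a single block, and these made up 4 of the 27 rises, 5 of the 32 falls and 17 of the 47 that did not pass the test. The median G and C content, taken from the longest transcript of each gene, was 41.5% in the rises, 43.9% in the falls and 47.4% in the rest. The median level was 13.4 CPM in the rises and 7.52 CPM in the falls, and the split of calls depends on the expression-level trend, as given above. A gene body overlapping another tested gene was found for 49 of the 106, on the same strand for 21 and on the other strand for 38, and 10 had a stretch of at least 300 bases with at least 98% identity to another gene.

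Coding neighbours were taken as the nearest protein-coding gene on each side and any overlapping one, at most 100 kb away. Of the 106 lincRNAs, 83 had such a neighbour that was tested, which gave 138 pairs and 132 coding genes. Of the 132, 26 were higher (19.7%, against 16.2% of all genes) and 25 lower (18.9%, against 18.5%). In either direction that is 38.6% of the neighbours, against 34.8% of all genes and 47.3% of coding genes averaging 4 CPM or more. The lincRNAs that passed the test stood in 71 pairs: the neighbour was called in the same direction in 19, in the opposite direction in 10 and not called in 42. That is 65.5% in the same direction among the 29 pairs with both called, beside 64.2% of 1979 adjacent pairs of coding genes with both called. Among the 19 pairs that lie head to head with starts within 5 kb, 7 had a lincRNA that passed, and the neighbour moved the same way in 2, the opposite way in 1 and was not called in 4. Among 704 head-to-head pairs of coding genes, 75% of the 156 with both called went in the same direction.

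The 2 head-to-head pairs that fell together were AC016705.2 with ARNT2 and LINC01833 with SIX3. ARNT2, a partner of bHLH-PAS transcription factors whose start lies 775 bases from that of AC016705.2, measured 37.0, 44.1 and 39.9 CPM in WT and 22.0, 23.7 and 24.2 CPM in R98W (log2 fold change -0.79, SE 0.08, edgeR adjusted p = 4.79e-07), beside -1.04 for the lincRNA. SIX3, a homeobox gene of eye and forebrain development 2.70 kb from LINC01833, was barely present, at 0.271, 0.513 and 0.232 CPM in WT and 0.0102, 0.0620 and 0 CPM in R98W. It passed the test (edgeR adjusted p = 0.000487), but its R98W reads are too few for a useful fold change. In both pairs every R98W library was below every WT library for the lincRNA and for the coding gene.

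Next come 3 of the other head-to-head pairs in which the lincRNA and its coding partner had different calls. The difference itself was not tested. BAIAP2, whose start lies 241 bases from that of BAIAP2-DT, measured 10.9, 11.1 and 11.2 CPM in WT and 12.6, 11.4 and 13.9 CPM in R98W. Its log2 fold change of 0.19 did not pass the test (SE 0.10, edgeR adjusted p = 0.141), while the lincRNA fell by 1.36 on that scale. BAIAP2 passed as higher with the expression-level trend (0.27, edgeR adjusted p = 0.0341) or the G and C trend removed (0.24, edgeR adjusted p = 0.0307). The gene on the other side of BAIAP2-DT, the ESCRT-III gene CHMP6 at 19.6 kb, fell from 13.7 ± 1.0 to 9.23 ± 1.1 CPM (SD, n = 3; log2 fold change -0.57, edgeR adjusted p = 0.000293). NUP50, 60 bases from the start of NUP50-DT, measured 77.2, 74.4 and 77.9 CPM in WT and 76.7, 78.8 and 72.7 CPM in R98W (log2 fold change -0.01, SE 0.06, edgeR adjusted p = 0.946), with the groups over each other, while NUP50-DT rose by 0.68.

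SCAMP1-AS1 fell, from 4.41, 6.33 and 5.34 CPM to 4.10, 3.62 and 3.83 CPM (log2 fold change -0.48, SE 0.14, edgeR adjusted p = 0.0127). SCAMP1, a gene of secretory carrier membranes that starts 76 bases from the GENCODE start of SCAMP1-AS1 on the other strand (the RefSeq start of the lincRNA, used for the printed gap, lies 34 bases nearer), rose, from 86.3, 82.5 and 98.9 CPM to 111, 113 and 99.8 CPM (log2 fold change 0.27, SE 0.08, edgeR adjusted p = 0.00837). Neither pair of groups overlapped, but the margin of SCAMP1 was narrow. Both calls were lost with the expression-level trend removed (edgeR adjusted p = 0.0581 for SCAMP1-AS1 and 0.0801 for SCAMP1) and without R98W replicate 2 (0.0564 and 0.0534), and that of SCAMP1-AS1 also without WT replicate 2 (0.074). The converse, a coding gene that rose beside a divergent lincRNA that did not pass, was seen at EIF3J-DT and RAB30-AS1. EIF3J, a translation initiation factor gene, rose from 91.3 ± 6.1 to 118 ± 3.9 CPM (SD, n = 3; log2 fold change 0.37, edgeR adjusted p = 0.000282) beside 0.22 for EIF3J-DT (SE 0.11, edgeR adjusted p = 0.14), whose groups did not overlap and which passed with the expression-level trend removed (0.33, edgeR adjusted p = 0.0267). RAB30, a Golgi GTPase gene, rose from 17.2 ± 2.1 to 24.5 ± 1.2 CPM (SD, n = 3; log2 fold change 0.51, edgeR adjusted p = 0.000249) beside 0.06 for RAB30-AS1.

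Among overlapping genes, NRIP1 measured 186 ± 11 CPM in WT and 195 ± 9.3 CPM in R98W (SD, n = 3; log2 fold change 0.06, edgeR adjusted p = 0.499), while AF127577.4, which overlaps it on the same strand, rose by 0.83. GCLC rose from 312 ± 14 to 368 ± 17 CPM (SD, n = 3; log2 fold change 0.24, edgeR adjusted p = 0.0069) beside 0.59 for AL033397.1, but not with the expression-level trend removed (0.07, edgeR adjusted p = 0.411). WDR81, which overlaps MIR22HG on the other strand, was at -0.11 (edgeR adjusted p = 0.334), and TLCD2 on its other side fell (-0.39, edgeR adjusted p = 0.0016).

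AP2B1, a clathrin adaptor gene 3.20 kb from LINC02001, was at 0.09 (edgeR adjusted p = 0.328). Further away, NT5E, which encodes the ectonucleotidase CD73 and starts 59.4 kb from LINC02535, rose from 51.2, 47.1 and 51.1 CPM to 85.9, 83.4 and 70.4 CPM (log2 fold change 0.68, SE 0.08, edgeR adjusted p = 1.83e-06), beside 0.75 for the lincRNA. RBM19, a ribosomal RNA processing gene 43.1 kb from LINC01234, fell (-0.44, SE 0.08, edgeR adjusted p = 0.000269). SOX4, a developmental transcription factor gene 66.2 kb from CASC15, was at -0.26 (edgeR adjusted p = 0.0201), a call lost without the library labelled WT replicate 1 (-0.16, edgeR adjusted p = 0.11), without R98W replicate 1 (0.05), without R98W replicate 3 (0.0876) and with the G and C trend removed (0.0857). BHLHB9, 15.6 kb from LINC00630, fell by 1.02 on the log2 scale (SE 0.10, edgeR adjusted p = 4.06e-07); the call of LINC00630 (-0.44, edgeR adjusted p = 0.0216) was lost without WT replicate 2 (0.0969), without R98W replicate 3 (0.116) and with the expression-level trend removed (0.102). DKK1, 133 kb from LNCAROD and so outside the 100 kb counted, fell from 368, 415 and 431 CPM to 315, 297 and 258 CPM (log2 fold change -0.48, SE 0.08, edgeR adjusted p = 8.66e-05).

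A larger difference than in the lincRNA itself was also seen beside a lincRNA that did not pass. SCD, the stearoyl-CoA desaturase gene 8.68 kb from OLMALINC, rose (0.51, SE 0.07, edgeR adjusted p = 1.28e-05) beside 0.09 for OLMALINC. Across genes, the lincRNA and neighbour log2 fold changes had a Pearson r of 0.28 and a Spearman rho of 0.23 over all 138 pairs, and 0.52 and 0.33 over the 19 head-to-head pairs, or 0.36 and 0.24 without LINC01833. Adjacent coding genes gave 0.16 and 0.16 over 10000 pairs, and 0.14 and 0.21 over the 704 of them that lie head to head. These are descriptions: genes of the same libraries are not independent replicates.

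**Figure D5:**
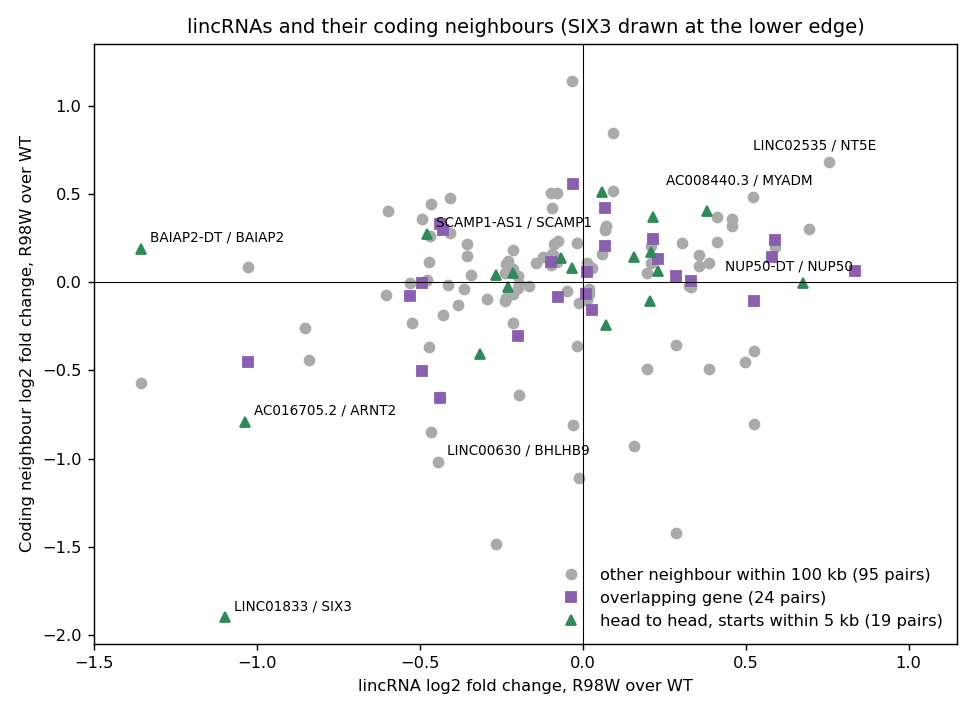
Log2 fold change of the coding neighbour (vertical axis) against that of the lincRNA (horizontal axis), R98W over WT, for 138 pairs, with head-to-head pairs as triangles, overlapping genes as squares and other neighbours as circles; SIX3 is drawn at the lower edge. BAIAP2-DT and NUP50-DT lie far from 0 on the horizontal axis with their head-to-head neighbours BAIAP2 and NUP50 near 0, and AC016705.2 with ARNT2 lies low on both.

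The proteins that act on these RNAs were read in 4 further lists. Of 19 paraspeckle protein genes tested, 2 were higher and 1 lower, also without the library labelled WT replicate 1. Over all genes 16.2% were higher and 18.5% lower, and over coding genes averaging 4 CPM or more 25.4% and 21.9%. ZC3H6 rose (0.41, edgeR adjusted p = 0.00644). Of the 2 genes with the symbol MATR3, which overlap on the same strand, 1 rose from 2.48 to 4.08 CPM (0.72, edgeR adjusted p = 0.00198). The other MATR3 gene was not tested, so the level of MATR3 as a whole cannot be read from this call. TAF15 fell (-0.26, edgeR adjusted p = 0.0138), a call lost without R98W replicate 2 (0.12) and without R98W replicate 3 (0.0546). The core proteins SFPQ, NONO and PSPC1 were at -0.09, 0.05 and 0.16, with edgeR adjusted p of 0.299, 0.599 and 0.0826. SFPQ had groups that did not overlap and passed as lower with the expression-level trend removed (-0.26, edgeR adjusted p = 0.0021), and PSPC1 as higher with the length trend removed (0.20, edgeR adjusted p = 0.0216). Of 6 genes for PUMILIO proteins and NORAD partners, 3 were higher and 1 lower, beside the same 16.2% and 18.5% of all genes (4 and 0 without the library labelled WT replicate 1). PUM2 rose from 178 to 214 CPM (0.27, edgeR adjusted p = 0.00349), but not with the expression-level trend removed (edgeR adjusted p = 0.129). NANOS1, a PUMILIO cofactor, rose (0.57, edgeR adjusted p = 0.00494). NANOS3, the 1 that fell, was barely present, at 0.19 CPM in WT and 0.06 CPM in R98W on average (edgeR adjusted p = 0.0482). Its call was lost in many other fits, among them that without WT replicate 1 (edgeR adjusted p = 0.102).

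Of 27 nuclear RNA decay genes tested, 9 were higher and 3 lower, but 5 and 5 without the library labelled WT replicate 1. Over all genes 16.2% were higher and 18.5% lower, and over coding genes averaging 4 CPM or more 25.4% and 21.9%. EXOSC9, a core subunit of the RNA exosome, fell from 31.4 to 23.8 CPM (-0.40, edgeR adjusted p = 0.000729), and NCBP3, a cap-binding protein, fell (-0.31, edgeR adjusted p = 0.00104). ZCCHC8, a subunit of the exosome-targeting NEXT complex, rose (0.30, edgeR adjusted p = 0.00275), as did TENT4B, the polymerase of the TRAMP-like complex (0.37, edgeR adjusted p = 0.00629). Of 33 genes of 3′ end processing and the Integrator complex, 5 were higher and 10 lower (5 and 11 without that library). The shares to set beside these are the same 16.2% and 18.5% of all genes, and 25.4% and 21.9% of those coding genes. CSTF2, CSTF2T and CSTF3, subunits of the cleavage stimulation factor, moved apart: CSTF2 fell (-0.44, edgeR adjusted p = 0.000183), its paralogue CSTF2T fell (-0.52, edgeR adjusted p = 1.24e-05), and CSTF3 rose (0.42, edgeR adjusted p = 6.32e-05). CSTF3 overlaps LINC00294 on the other strand. The Integrator gene INTS3 fell from 73.6 to 54.6 CPM (-0.43, edgeR adjusted p = 9.82e-05). These counts are descriptions, and the lists were not tested as sets.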

How the data were processed

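The 6 libraries were grouped by their titles as 3 WT and 3 R98W. The authors deposited 1 table of raw read counts per gene; HTSeq 0.11.3, HISAT2 2.1.0, CASAVA 1.8 and build hg38 are named, without roles, in the submitters' processing notes. For the counting, annotation and strand setting were not given in the sources used here, so reads of overlapping genes on opposite strands cannot be told apart. The treatment of reads shared by overlapping genes was not given either. Reads of genes that overlap on the same strand, as at AF127577.4 and AL033397.1, are therefore uncertain too. All 58721 rows matched GENCODE release 29.

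Counts were tested with edgeR 4.0.16 (R 4.3.3): filterByExpr (minimum count 10), TMM scaling, quasi-likelihood test in a fit of all 6 libraries, two-sided, with Benjamini-Hochberg adjustment over 20713 genes and a threshold of 0.05. Of the lincRNAs, all 106 passed the filter. SE is derived from the test statistic. The biological coefficient of variation was 10.0%. On simulated data for this comparison, 18% of 50 genes changed 1.25-fold, 74% at 1.5-fold and 100% at 2-fold were called, with 14 false calls among 20396 genes tested. The simulation gave every gene the same dispersion and changed far fewer genes than the 7203 called in the data. Its shares are therefore not the sensitivity of the test on the data. Near-identical stretches were searched with BLAST 2.17.0.

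Values in full are given for the 8 largest called rises and falls with no overlap between groups, the 4 of each with the smallest p, the 8 highest levels per exonic length, the role lists and the genes at the 4 CPM minimum, with their coding neighbours. Of partner lists, the 4 genes with the smallest p come first. Not every gene named by the rule is described, and some results are not reported here. The lincRNAs and lists were chosen with earlier results of these data known. Alternatives were other scalings, filters, thresholds and tests (limma-voom 3.58.1, DESeq2 1.42.0), trend corrections, a replicate block and each library left out.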

Additional observations from a re-analysis of the deposited data

How the results depend on the processing

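Of the 59 called lincRNAs, 38 were called in the same direction in every alternative fit (17 higher, 21 lower): 45 in the 10 fits that keep all libraries, and 38 in all 6 fits without 1 library. With 1 library left out, 19 to 25 lincRNAs were higher and 25 to 30 lower, and 17 to 26 neighbours were higher and 21 to 24 lower; the lowest of the neighbour counts, 17, came without R98W replicate 1, where 5965 genes were called in all instead of 7203. A minimum fold of 1.5 left 5 lincRNAs higher and 11 lower, and 1 neighbour higher and 10 lower. A mean of at least 8 CPM left 13 falls among 55 lincRNAs. An adjusted p of 0.01 left 15 neighbours higher, and a distance of 10 kb left 15 higher and 11 lower among 69 neighbours tested. Among the 38 lincRNAs named by rule, signs reversed in 5, none of which passed the test (over all 106, the sign turned in 8 without WT replicate 1, none of them called): with 1 library left out, the log2 fold change ran from -0.0025 (without WT replicate 3) to 0.115 for LINC00294, from -0.241 to 0.054 (without WT replicate 1) for MALAT1, from -0.10 (without R98W replicate 3) to 0.27 for MEG3, from -0.073 to 0.040 (without R98W replicate 3) for NORAD and from -2.4e-05 (without R98W replicate 2) to 0.125 for RAB30-AS1. NORAD was also at 0.029 with the length trend removed and RAB30-AS1 at -0.017 with the G and C trend removed; the cause was not tested.

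Same-numbered libraries did not deviate together: their deviations from the group means correlated at -0.161 to -0.0298, below those of different numbers (0.00426 to 0.149). Deviations cancel within a group, so these correlations are not independent of each other. The labels do not say what a number marks, and the check cannot settle whether libraries were paired. With the replicate number as a block, 27 lincRNAs were higher and 31 lower, 25 neighbours were higher and 25 lower, 6883 genes were called in all, and no call of a lincRNA named in full changed.

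The lowest count was 272 and the median SE 0.11. The lincRNAs that did not pass had log2 fold changes from -0.32 to 0.28, and every lincRNA beyond that range was called. Within it some were called and others not, so smaller differences may have been missed with 3 libraries a group.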

Other observations

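Among the 106 lincRNAs, 6 pairs lie within 100 kb of each other. NEAT1 and MALAT1 lie 52.1 kb apart on the same strand, where NEAT1 fell (-0.36) and MALAT1 was at -0.09. LINC00662 (log2 fold change 0.52, edgeR adjusted p = 0.000133) overlaps AC006504.5 on the other strand, which was at -0.01 (edgeR adjusted p = 0.943). AC018645.2, a single exon of 472 bases, lies 0.925 kb from LINC00997 on the same strand, and measured 4.22, 3.22 and 3.78 CPM in WT and 5.08, 5.38 and 4.93 CPM in R98W (log2 fold change 0.46, edgeR adjusted p = 0.012), beside 0.10 for LINC00997. That call was lost without WT replicate 2 (edgeR adjusted p = 0.0616), without R98W replicate 2 (0.0513) and with the G and C or the length trend removed (0.0653 and 0.0531). The pairs of AC245041.2 with AC245041.1, AL365203.2 with ITGB1-DT and LINC02086 with AC103702.2 held no lincRNA that passed the test, though LINC02086 did with the expression-level trend removed (0.32, edgeR adjusted p = 0.0378).

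Near the minimum level, LINC01273 (log2 fold change 0.41, edgeR adjusted p = 0.0436) lies 18.8 kb from TMEM189, which rose (0.37, edgeR adjusted p = 0.00227), and 14.1 kb from CEBPB, which was at 0.23 (edgeR adjusted p = 0.0831) and passed in some other fits (0.29, edgeR adjusted p = 0.0423, without WT replicate 1). The LINC01273 call was lost in 5 of the 6 fits without 1 library and with upper-quartile scaling (edgeR adjusted p = 0.0517); without WT replicate 1 the log2 fold change was 0.25 (edgeR adjusted p = 0.204).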
